A study of Mus musculus with 18 samples.

Results

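The comparison asked where the change in gene expression of MKR mice differed between adipose tissue and skeletal muscle. It used 12 of the 18 Affymetrix Mouse Gene 1.0 ST arrays of the study, the 6 arrays of fat and the 6 arrays of muscle, and the liver arrays were left out of the fit. All mice were male, 10 weeks old and on the FVB/N background. The MKR genotype was labelled as a mutation of the IGF1 receptor of skeletal muscle, and the control mice were labelled as healthy wild type (WT). Each genotype had 3 mice, and every mouse gave 1 array of fat and 1 array of muscle, which made 4 groups of 3 arrays. For each of 20358 genes the change in MKR mice was taken in fat (MKR minus WT) and in muscle (MKR minus WT), and the second was subtracted from the first. This difference is the genotype by tissue interaction. It is above 0 where the change in fat was the higher one, and all values below are log2 intensities or differences of log2 intensities.

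As background, the MKR transgene is a kinase-dead human IGF-1 receptor under the muscle creatine kinase promoter. The defective receptors pair with the IGF-1 and insulin receptors of the muscle fibre and block their signalling. The mice become insulin resistant in muscle first and in liver and fat later, although the transgene is not meant to act outside muscle. Fat takes up glucose under insulin, makes fatty acids from it by de novo lipogenesis and stores them as triglyceride. Skeletal muscle takes up most of the glucose that insulin clears from blood, and it oxidizes both glucose and fatty acids. A gene with a large interaction is one whose transcript changed with the genotype by different amounts in these tissues. It may change in 1 tissue only, in opposite directions, or in the same direction by different sizes.

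The arrays matched their labelled tissues. The 15 skeletal muscle markers averaged 11.8 to 12.1 on the muscle arrays and 5.24 to 5.45 on the fat arrays, and the 11 adipocyte markers averaged 10.4 to 10.7 on 5 of the fat arrays and 5.98 to 6.55 on the muscle arrays. The fat array of MKR replicate 1 stood apart. Its adipocyte markers averaged 9.06, and its 15 epididymis markers averaged 10.5, against 4.74 to 5.09 on the other fat arrays. All 15 epididymis genes were higher on it than on any other fat array, by a median of 5.77. Results are therefore given both with 12 arrays and without MKR fat replicate 1, which leaves 11 arrays and 2 MKR fat samples. In bulk tissue, fewer cells of a type and less RNA per cell cannot be told apart.

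With 12 arrays, 6 of 20358 genes (0.0295%) passed an adjusted p of 0.05 for the interaction, 5 above 0 (0.0246%) and 1 below 0 (0.00491%). Without MKR fat replicate 1, 33 genes (0.162%) passed, 22 above 0 (0.108%) and 11 below 0 (0.054%), and these included all 6. The standard error of the interaction had a median over genes of 0.18 with 12 arrays and 0.17 with 11. At an unadjusted p of 0.05, 1638 genes (8.05%) passed with 12 arrays and 2345 (11.5%) with 11. Within the tissues, the change in fat was called for 4 genes (0.0196%) with 12 arrays and 16 (0.0786%) with 11, and the change in muscle for 22 (0.108%) and 133 (0.653%). The interaction was above 0 for 50.1% of all genes with 12 arrays and for 53.4% with 11. The fat and muscle arrays of a mouse share that animal, and the counts differed with how the mouse was treated, for reasons that were not tested. With the mouse as a random block, 12 genes passed in place of 6. With the mouse as a replicate block, 3 genes passed in place of 6, and 4 in place of 10 when both arrays of MKR mouse 1 were omitted. The 3 were Me3, Mybph and Slc4a10, and the 4 were these and Prss23. None of the other called genes passed with the replicate block. They also depended on single arrays. Omitting any other array from the 12 gave 2 to 9 genes. Omitting 1 further array from the 11 gave 3 genes without MKR muscle replicate 2, 4 without MKR fat replicate 2, and 3 to 38 over 10 of the 11 arrays, but 500 without WT fat replicate 3, 391 of them below 0.

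The 33 genes fell into 3 patterns. In 14 genes the change in muscle was at least 3 times as large as the change in fat, 9 of them with an interaction above 0 and 5 below 0. In 6 genes the change in fat was at least 3 times as large as that in muscle, 3 in each direction. In the remaining 13 genes the changes in the tissues had opposite signs and more similar sizes, 10 with an interaction above 0 and 3 below 0. With changes in opposite directions at an unadjusted p under 0.05 in both tissues, 96 genes (0.472%) were higher in fat and lower in muscle and 40 (0.196%) lower in fat and higher in muscle with 11 arrays, against 44 (0.216%) and 34 (0.167%) with 12. Over all genes the Pearson r between the change in fat and the change in muscle was 0.057 with 12 arrays and 0.084 with 11 (genes are not independent replicates). Measurement error in the change of each gene lowers such an r, so it cannot show whether the tissues responded alike.

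**Figure D1:**
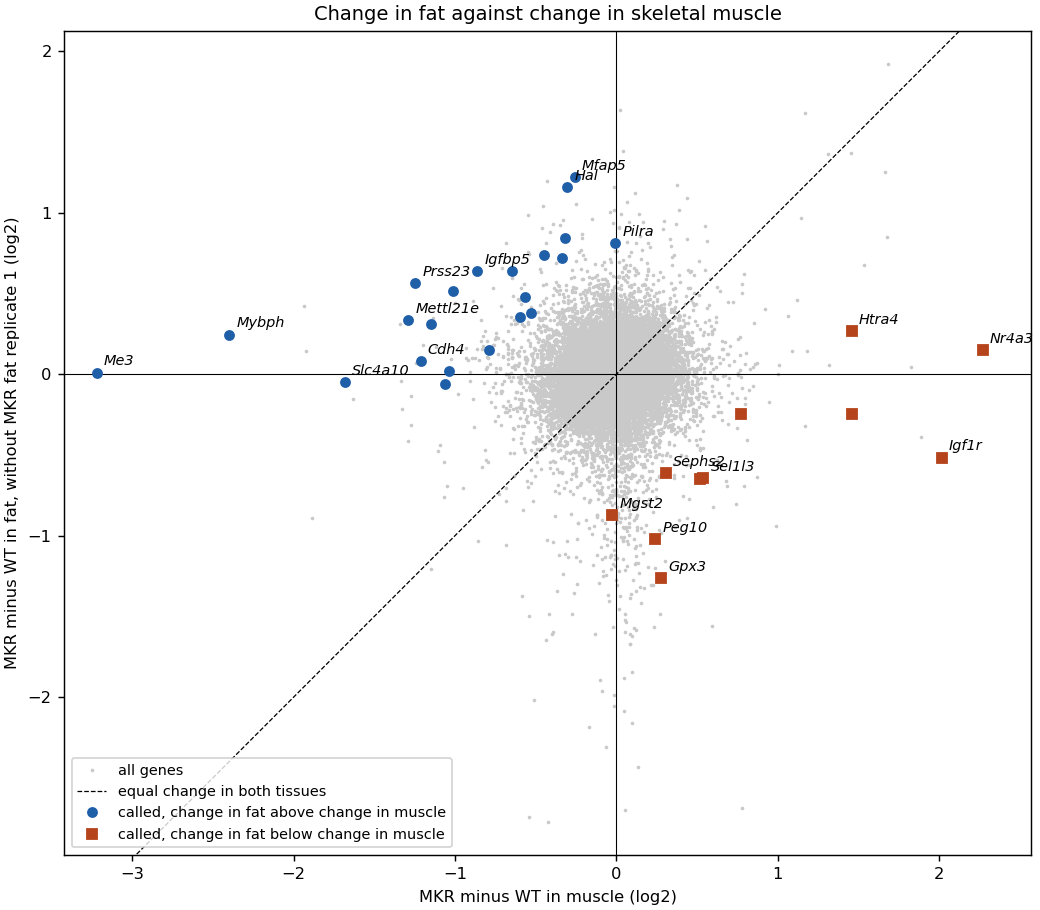
Change in fat without MKR fat replicate 1 (vertical axis, MKR minus WT, log2) against change in muscle (horizontal axis, MKR minus WT, log2) for 20358 genes in grey, with the 33 genes called for the interaction in colour. Blue circles (22 genes) lie above the dashed line of equal change and orange squares (11 genes) below it, and the genes farthest out lie along the muscle axis.

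Of the 5 genes called above 0 with 12 arrays, 4 were lower in MKR than in WT muscle and low in all fat. Me3, the mitochondrial NADP-dependent malic enzyme, which turns malate into pyruvate and makes NADPH, had the largest interaction of the 20358 genes with 12 arrays. Its values in WT muscle were 8.30, 8.15 and 7.79, and in MKR muscle 4.93, 4.83 and 4.82. In fat they were 4.76, 4.98 and 5.11 in WT and 4.64, 4.87 and 5.05 in MKR. The muscle groups did not overlap and the fat groups did. The signal of Me3 fell 9.33-fold in MKR muscle, to the level of fat, where no detection call was used to tell signal from background. The interaction was 3.12 (SE 0.21, limma adjusted p = 8.8e-05) with 12 arrays and 3.23 with 11. Of its 17 probe sets, 16 fell by more than 1 in muscle, with a range over the probe sets of -6.19 to -0.04.

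Mybph encodes myosin binding protein H, a protein of the sarcomere. It read 8.03, 8.26 and 7.93 in WT muscle and 5.57, 5.75 and 5.70 in MKR muscle. In fat it read 5.28, 5.32 and 5.45 in WT and 5.31, 5.65 and 5.54 in MKR. It fell 5.28-fold in MKR muscle, and its interaction was 2.55 (SE 0.17, adjusted p = 8.8e-05) with 12 arrays and 2.65 with 11. Me3 and Mybph passed in all 27 settings that were tried for single genes, the replicate block included, where their adjusted p values were 0.034 and 0.013.

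Slc4a10, a sodium-driven bicarbonate transporter, and Cdh4, which encodes R-cadherin, had the same shape. Slc4a10 read 6.25, 6.76 and 6.74 in WT muscle, 4.97, 4.85 and 4.89 in MKR muscle and 4.54 to 4.79 on all 6 fat arrays. Its interaction was 1.67 (SE 0.19, adjusted p = 0.017), and it passed with the replicate block (adjusted p = 0.043). Cdh4 read 7.42, 7.28 and 7.04 in WT muscle and 6.08, 6.0 and 6.01 in MKR muscle. On the fat arrays it read 5.15, 5.31 and 5.43 in WT and 5.28, 5.31 and 5.44 in MKR, so that only the muscle groups stood apart. The interaction of Cdh4 was 1.26 (SE 0.16, adjusted p = 0.024), and it did not pass with the replicate block (adjusted p = 0.32).

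5 further genes with a larger change in muscle than in fat were not called with 12 arrays and were called without MKR fat replicate 1. Of these, Mical2, Kcng4, Odf3l2 and Lrrtm3 were also called with all 18 arrays in the fit (adjusted p = 0.0097, 0.022, 0.019 and 0.027). Mettl21e, a methyltransferase of muscle, read 10.49, 10.56 and 10.61 in WT muscle and 9.07, 9.04 and 9.68 in MKR muscle, with an interaction of 1.63. Mical2, a monooxygenase that acts on actin, read 9.11, 9.53 and 9.80 in WT muscle and 8.43, 8.13 and 8.43 in MKR muscle, with an interaction of 1.46. The other 3 were Odf3l2 (1.06), the potassium channel subunit Kcng4 (1.00) and Lrrtm3 (0.94), which lay outside the naming rule and are named because their values placed them here. In all 9 genes the muscle groups did not overlap, as held for 21.9% of all genes, and the choice of called genes with a large change in muscle favours this. When 1 further array was left out of the 11, Me3 and Mybph kept the call in 11 of 11 fits, Slc4a10 in 9, Cdh4 in 7, Mettl21e and Mical2 in 3, and Odf3l2, Kcng4 and Lrrtm3 in 2. A low level in fat limited what a fall there could have shown. In 8 of the 9 the mean of WT fat was below the median gene of every fat array (5.57 to 5.61), and in 3 of them (Me3, Mybph and Slc4a10) a fall in fat of the size seen in muscle would have ended below the lowest gene value on any fat array (3.27).

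**Figure D2:**
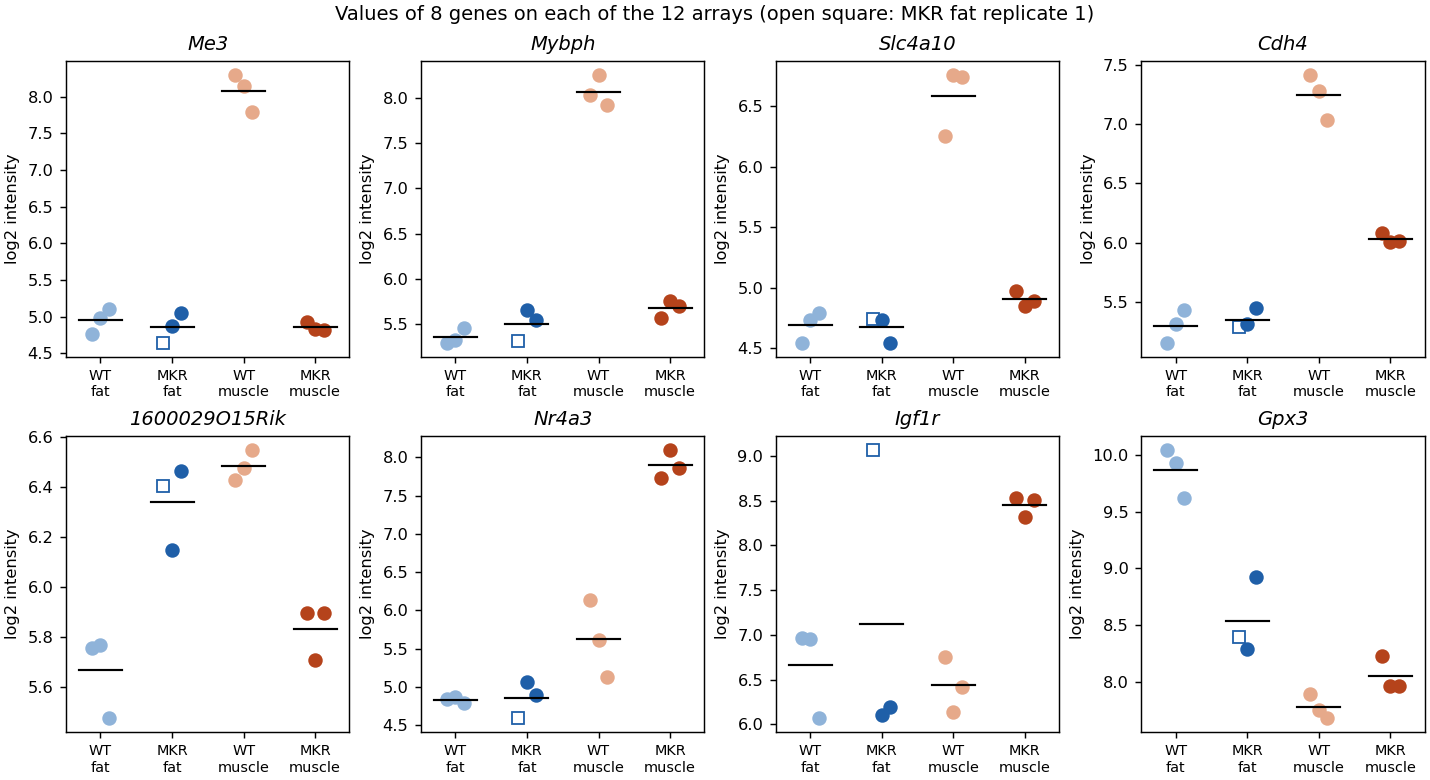
Log2 intensity (vertical axis) of 8 genes on each of the 12 arrays, by group, with the mean of 3 arrays as a black bar and MKR fat replicate 1 as an open square. Me3, Mybph, Slc4a10 and Cdh4 are low in MKR muscle and level in fat, Nr4a3 is high in MKR muscle and level in fat, Gpx3 is low in MKR fat, and Igf1r is at 9.07 on MKR fat replicate 1 against 6.10 and 6.19 on the other MKR fat arrays.

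The only gene called below 0 with 12 arrays was Nr4a3, one of a family of 3 orphan nuclear receptors that are transcribed quickly after exercise, adrenergic stimulation and other signals through cAMP. The promoters of the family are shown because its members differed in the size of the interaction, and those of Me3 and Mybph are shown as the promoters of the genes with the largest falls in muscle among those called. Each is the RefSeq sequence (GRCm38.p6) from 250 bases before to 50 bases after the start of the gene, 5′ to 3′ on the strand of the gene. Capitals mark TGACG, the half-site of the cAMP response element, on either strand (CGTCA on the opposite strand), and in Mybph they mark CAGCTG, an E-box bound by myogenic factors.
Nr4a3, chr4:48045055-48045354, plus strand: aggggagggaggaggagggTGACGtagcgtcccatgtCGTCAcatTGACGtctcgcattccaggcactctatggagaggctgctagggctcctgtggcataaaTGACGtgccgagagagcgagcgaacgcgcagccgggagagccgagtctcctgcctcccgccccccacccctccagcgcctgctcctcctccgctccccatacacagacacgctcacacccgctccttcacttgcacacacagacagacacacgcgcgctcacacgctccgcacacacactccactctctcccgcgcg
Nr4a2, chr2:57123954-57124253, minus strand: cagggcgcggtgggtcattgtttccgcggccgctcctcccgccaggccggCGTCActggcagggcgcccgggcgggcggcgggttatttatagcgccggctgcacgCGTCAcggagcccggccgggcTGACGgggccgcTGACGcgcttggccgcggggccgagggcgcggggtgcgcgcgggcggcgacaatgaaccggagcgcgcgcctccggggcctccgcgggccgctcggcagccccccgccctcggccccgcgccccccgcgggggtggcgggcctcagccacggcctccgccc
Nr4a1, chr15:101266596-101266895, plus strand: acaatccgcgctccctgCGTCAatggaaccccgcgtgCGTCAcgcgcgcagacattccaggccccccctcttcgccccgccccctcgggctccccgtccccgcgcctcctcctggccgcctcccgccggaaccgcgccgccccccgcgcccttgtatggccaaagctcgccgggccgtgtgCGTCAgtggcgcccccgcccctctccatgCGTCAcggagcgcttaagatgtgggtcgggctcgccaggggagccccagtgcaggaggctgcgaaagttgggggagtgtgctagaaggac
Mybph, chr1:134193198-134193497, plus strand: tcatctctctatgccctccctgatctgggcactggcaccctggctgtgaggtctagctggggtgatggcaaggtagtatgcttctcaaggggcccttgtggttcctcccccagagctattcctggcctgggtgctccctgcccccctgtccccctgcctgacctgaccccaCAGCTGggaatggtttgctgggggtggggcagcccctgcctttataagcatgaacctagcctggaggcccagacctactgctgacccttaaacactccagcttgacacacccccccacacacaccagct
Me3, chr7:89632568-89632867, plus strand: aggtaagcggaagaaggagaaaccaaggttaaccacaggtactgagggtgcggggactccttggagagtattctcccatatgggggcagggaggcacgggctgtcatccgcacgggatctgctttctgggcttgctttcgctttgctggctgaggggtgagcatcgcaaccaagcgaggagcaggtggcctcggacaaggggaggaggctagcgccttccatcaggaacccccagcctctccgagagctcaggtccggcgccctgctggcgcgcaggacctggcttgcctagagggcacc
Each Nr4a promoter held 4 half-sites. The Me3 promoter held neither sequence, and that of Mybph held 1 CAGCTG and no half-site. Of 32851 promoters of this length, 20.8% held at least 1 half-site and 0.231% held at least 4, and 16.3% held CAGCTG. A match describes the letters of the window only.

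Nr4a3 read 6.14, 5.61 and 5.13 in WT muscle and 7.73, 8.10 and 7.86 in MKR muscle. In fat it read 4.84, 4.86 and 4.79 in WT and 4.59, 5.07 and 4.89 in MKR. The muscle groups stood apart, with the widest spread in WT muscle, and the fat groups overlapped. Nr4a3 rose 4.83-fold in MKR muscle, and the interaction was -2.25 (SE 0.30, adjusted p = 0.039) with 12 arrays and -2.12 with 11. With the replicate block it did not pass (adjusted p = 0.11), and it kept the call in 6 of the 11 fits that left out a further array. Nr4a2 read 7.05, 6.79 and 5.57 in WT muscle and 7.26, 7.70 and 7.74 in MKR muscle, and 5.36 to 5.70 on all fat arrays, with an interaction of -0.95 (adjusted p = 0.61). The muscle groups of Nr4a1 overlapped, at 9.32, 9.09 and 7.70 in WT and 9.19, 9.76 and 9.08 in MKR. Its fat groups did not overlap, at 5.89, 5.57 and 5.39 in WT and 6.01, 6.02 and 6.25 in MKR, and its interaction was -0.16 (adjusted p = 0.95). Muscle replicate 3 of WT gave the lowest value of that group for all 3 genes. Ier2, another immediate early gene, had an interaction of -0.48 with 12 arrays and -0.32 with 11, and Btg2 one of -1.22 and -0.86, and neither passed. Of the 28 immediate early genes measured, 0 were called, and the median interaction was -0.17 with 12 arrays and 0.02 with 11.

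Igf1r, the gene targeted by the transgene, read 6.75, 6.14 and 6.42 in WT muscle and 8.53, 8.32 and 8.51 in MKR muscle. In fat it read 6.97, 6.96 and 6.07 in WT, and 9.07, 6.10 and 6.19 in MKR. The high fat value was that of replicate 1, the array with epididymis transcripts. The interaction of Igf1r was -1.56 (SE 0.88, adjusted p = 0.68) with 12 arrays and -2.53 (SE 0.32, adjusted p = 0.017) without that array. It passed in 9 of the 11 fits that left out a further array, and not with the replicate block omitting MKR mouse 1 (adjusted p = 0.10). The probe sets were designed on the mouse gene and did not move together. In muscle, 14 of 23 rose by more than 1 and 8 stayed within 0.5, over a range of -0.36 to 6.16. On MKR fat replicate 1, 21 of the 23 were more than 1 above WT fat. On the other MKR fat arrays the median probe set differed from WT fat by -0.57. Which probe sets read the human transgene was not tested.

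**Figure D3:**
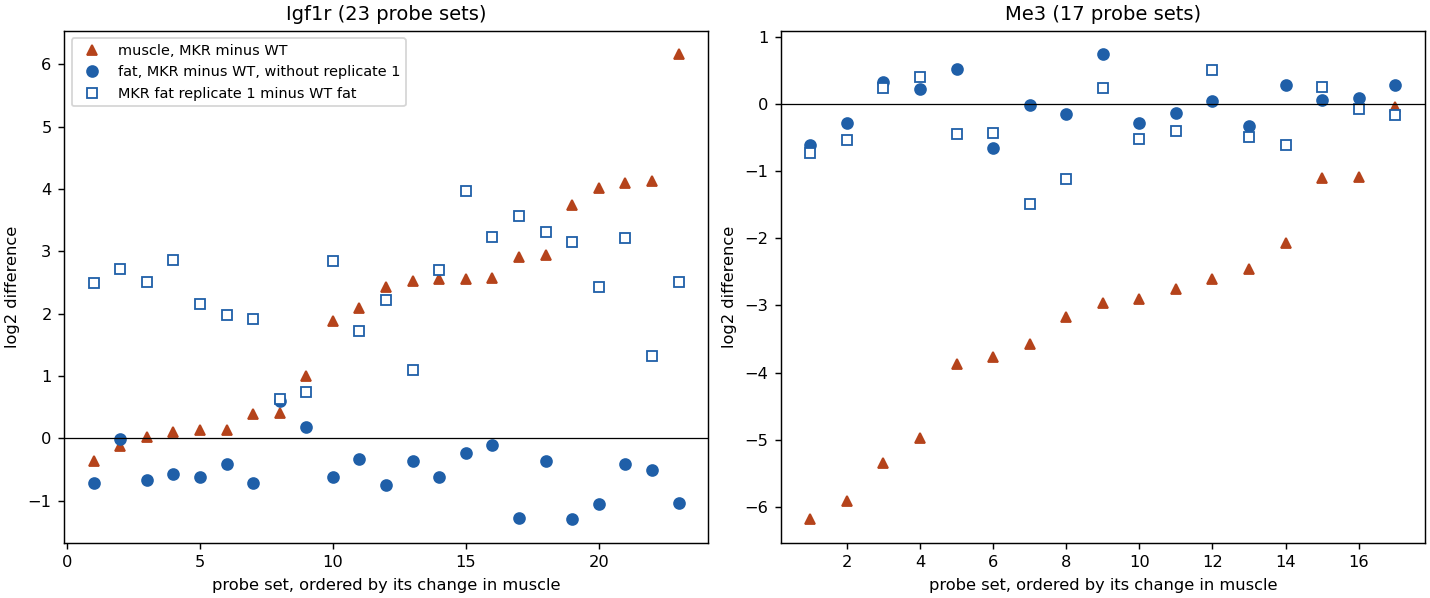
Log2 difference (vertical axis) of each probe set of Igf1r (23) and Me3 (17), ordered along the horizontal axis by change in muscle. Triangles are MKR minus WT in muscle, filled circles the same in fat without MKR fat replicate 1, and open squares MKR fat replicate 1 minus the mean of WT fat. The muscle change of Igf1r runs from -0.36 to 6.16 while 21 probe sets of the open-square series lie above 1, and 16 probe sets of Me3 lie under -1 in muscle.

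Of insulin and IGF-1 signalling and glucose uptake, 32 genes were measured, the receptor genes Igf1r and Insr among them. With 12 arrays, 6 had an unadjusted p under 0.05, 2 above 0 (4.13% of all genes) and 4 below 0 (3.91%), and none was called. Without MKR fat replicate 1 there were 4 above 0 (6.59% of all genes) and 3 below 0 (4.93%), and Igf1r was the only one called. Members below are named after their values were seen. Irs2, an adaptor of both receptors, read 6.41, 5.99 and 5.83 in WT muscle and 6.68, 7.24 and 6.85 in MKR muscle, and 5.91 to 6.28 on the fat arrays. Its interaction was -0.92 (adjusted p = 0.22) without MKR fat replicate 1, and its change in muscle, 0.85, was called in that fit (adjusted p = 0.047). Irs1, the other main adaptor, read 8.20, 7.74 and 8.63 in WT muscle and 9.07, 9.04 and 8.81 in MKR muscle, with an interaction of -0.86 (adjusted p = 0.30). Grb14, an inhibitor of the insulin receptor, read 7.30, 6.10 and 6.22 in WT muscle and 5.29, 5.19 and 5.42 in MKR muscle, and its interaction was 1.31 (adjusted p = 0.34). The muscle groups of all 3 genes did not overlap, as held for 21.9% of all genes. The insulin receptor gene Insr had an interaction of -0.34 without MKR fat replicate 1, and neither it nor the glucose transporter Slc2a4 passed. The interaction of Slc2a4 was -0.13 with 12 arrays and 0.15 with 11.

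3 called genes that serve antioxidant defence or selenium metabolism fell in MKR fat without replicate 1. In Gpx3 and Mgst2 the change in fat was at least 3 times that in muscle, and in Sephs2 the changes had opposite signs. Gpx3, the secreted selenium-dependent glutathione peroxidase, read 10.05, 9.93 and 9.62 in WT fat and 8.39, 8.29 and 8.92 in MKR fat. In muscle it read 7.89, 7.75 and 7.68 in WT and 8.23, 7.96 and 7.96 in MKR. The groups did not overlap in either tissue, and the directions were opposite. Without MKR fat replicate 1, Gpx3 fell 2.40-fold in fat (adjusted p = 0.025), and its interaction was -1.54 (SE 0.24, adjusted p = 0.031). With 12 arrays the interaction was -1.61 (adjusted p = 0.053). All 6 probe sets of Gpx3 were lower in MKR fat without replicate 1, with differences of -1.69 to -0.55.

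Mgst2, a microsomal glutathione S-transferase, read 6.80, 6.78 and 6.85 in WT fat and 5.40, 5.94 and 5.94 in MKR fat, and 4.92 to 5.14 on all muscle arrays. Its interaction was -0.85 (SE 0.13, adjusted p = 0.028) without MKR fat replicate 1 and -1.02 (adjusted p = 0.17) with 12 arrays. Sephs2, which makes the selenophosphate that selenoproteins are built with, read 6.93, 6.92 and 6.96 in WT fat and 5.96, 6.35 and 6.29 in MKR fat. In muscle it read 6.20, 6.25 and 6.31 in WT and 6.68, 6.54 and 6.46 in MKR, so that it was lower in fat and higher in muscle with no overlap. The interaction of Sephs2 was -0.92 (SE 0.13, adjusted p = 0.023) without MKR fat replicate 1 and -1.04 (adjusted p = 0.053) with 12 arrays. None of these 3 passed with the replicate block (adjusted p from 0.11 to 0.14 with MKR mouse 1 omitted). When a further array was left out of the 11, Gpx3 and Mgst2 kept the call in 3 of 11 fits and Sephs2 in 6. Of the 43 glutathione and selenium genes measured, these 3 were the only ones called, against 0.162% of all genes. Without replicate 1, 5 were below 0 at an unadjusted p under 0.05 and 2 above 0, against 4.93% and 6.59% of all genes. Those above 0 were Prdx6 (0.66) and Gstk1 (0.81), named after their values were seen. The list as a whole had a median interaction of -0.12 with 12 arrays and -0.03 with 11, against 0.00 and 0.02 for all genes.

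Peg10, an imprinted gene derived from a retrotransposon, read 7.69, 7.71 and 8.13 in WT fat and 5.80, 6.68 and 6.97 in MKR fat. In muscle it read 5.42, 5.33 and 5.43 in WT and 5.45, 5.77 and 5.68 in MKR. Its interaction was -1.26 (SE 0.20, adjusted p = 0.032) without MKR fat replicate 1 and -1.61 (adjusted p = 0.27) with 12 arrays. Peg10 did not pass with the replicate block (adjusted p = 0.32), nor with MKR mouse 1 omitted from it. It kept the call in 2 of the 11 fits that left out a further array. Peg10 was the only one of 20 imprinted growth genes called, against 0.162% of all genes, and 3 of the 20 were below 0 at an unadjusted p under 0.05 in each fit, against 3.91% of all genes with 12 arrays and 4.93% with 11.

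3 genes rose in MKR fat without replicate 1 and differed little in muscle. Mfap5, a microfibril protein of connective tissue, read 8.69, 8.73 and 8.31 in WT fat and 7.79, 10.01 and 9.58 in MKR fat, where 7.79 was the value of replicate 1. In muscle it read 8.16, 7.93 and 8.29 in WT and 7.92, 7.85 and 7.83 in MKR. The interaction of Mfap5 was 1.48 (SE 0.21, adjusted p = 0.024) without that array and 0.81 (adjusted p = 0.76) with it. Hal, the histidine ammonia lyase, read 6.81, 6.71 and 6.86 in WT fat and 6.09, 8.21 and 7.70 in MKR fat, with an interaction of 1.47 (adjusted p = 0.046) without replicate 1 and 0.85 (adjusted p = 0.73) with it. Pilra, an inhibitory receptor of myeloid cells that lay outside the naming rule, read 4.84, 4.75 and 4.84 in WT fat and 5.24, 5.66 and 5.58 in MKR fat, and 4.76 to 4.95 on the muscle arrays. Its interaction was 0.82 (adjusted p = 0.032) without replicate 1 and 0.69 (adjusted p = 0.33) with it, and its fat groups stood apart on all 6 arrays. When a further array was left out of the 11, Mfap5 kept the call in 6 of 11 fits, Hal in 3 and Pilra in 1.

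Among the genes with opposite changes, Prss23, a secreted serine protease, had the smallest p. It read 6.74, 6.72 and 6.85 in WT fat and 6.42, 7.42 and 7.24 in MKR fat, and 7.94, 8.04 and 7.85 in WT muscle and 6.60, 6.86 and 6.63 in MKR muscle. Without MKR fat replicate 1 its interaction was 1.81 (SE 0.15, adjusted p = 0.00027), which passed in all 11 fits that left out a further array and with the replicate block omitting MKR mouse 1 (adjusted p = 0.023). With 12 arrays it was 1.51 (adjusted p = 0.18). Without replicate 1 the change in muscle was called (adjusted p = 0.00014) and the change in fat was not (adjusted p = 0.13).

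Igfbp5, a binding protein that holds IGF-1 in the tissue, read 7.90, 7.79 and 7.41 in WT fat and 7.55, 8.38 and 8.29 in MKR fat. In muscle it read 9.82, 9.40 and 9.43 in WT and 8.83, 8.71 and 8.52 in MKR. Its interaction was 1.5 (SE 0.22, adjusted p = 0.027) without MKR fat replicate 1 and 1.24 (adjusted p = 0.40) with it. Sfrp4, a secreted inhibitor of Wnt signalling, read 6.70, 6.92 and 7.06 in WT muscle and 6.03, 5.49 and 6.11 in MKR muscle, with an interaction of 1.53 (adjusted p = 0.046) without and 1.16 (adjusted p = 0.52) with replicate 1. Scg3, a granin of secretory granules, had an interaction of 1.16 (adjusted p = 0.046) without and 0.72 (adjusted p = 0.69) with it. Of the other genes with an interaction above 0, the leukotriene synthesis gene Alox5ap (1.04), Anxa8 (1.06), Kctd9 (0.91), Prune2 (0.95), Gm4383 (1.19) and 1600029O15Rik lay outside the naming rule, and the values in parentheses leave out replicate 1. With 12 arrays Alox5ap was at 0.61 and Anxa8 at 0.67. When a further array was left out of the 11, Igfbp5 and Anxa8 kept the call in 6 of 11 fits, Gm4383 in 5, Sfrp4 and Prune2 in 3, and Scg3, Alox5ap and Kctd9 in 2. 1600029O15Rik was called with 12 arrays as well, at 1.32 (SE 0.16, adjusted p = 0.022). It rested on 1 probe set, which read 5.76, 5.77 and 5.48 in WT fat, 6.40, 6.15 and 6.46 in MKR fat, 6.43, 6.48 and 6.55 in WT muscle and 5.90, 5.71 and 5.90 in MKR muscle. It did not pass with the replicate block (adjusted p = 0.16).

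In the other direction, Sel1l3 read 5.50, 5.33 and 5.11 in WT fat and 5.97, 4.65 and 4.69 in MKR fat, and was 0.54 higher in MKR muscle, with an interaction of -1.18 without MKR fat replicate 1 and -0.75 (adjusted p = 0.67) with it. Htra4, a serine protease, was led by muscle, where it read 6.24, 6.12 and 5.89 in WT and 7.71, 7.42 and 7.50 in MKR. The interaction of Htra4 was -1.19 (adjusted p = 0.041) without and -1.32 (adjusted p = 0.095) with replicate 1. Plaat3, a phospholipase of adipocytes, read 9.85, 10.05 and 10.12 in WT fat and 8.22, 9.70 and 9.82 in MKR fat. In muscle Plaat3 read 8.80, 8.52 and 8.45 in WT and 9.32, 9.46 and 9.32 in MKR, and its interaction was -1.02 (adjusted p = 0.038) without and -1.53 (adjusted p = 0.46) with replicate 1. The predicted genes Gm904 (-1.71) and 2610044O15Rik8 (-1.17) complete the 11 genes below 0 without replicate 1 and lay outside the naming rule. With 12 arrays Gm904 was at -1.73 and 2610044O15Rik8 at -0.74. When a further array was left out of the 11, Htra4, Plaat3 and 2610044O15Rik8 kept the call in 3 of 11 fits and Sel1l3 and Gm904 in 2.

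De novo lipogenesis was the metabolic list with the lowest median interaction, at -0.53 with 12 arrays and -0.59 without MKR fat replicate 1. None of its 19 genes was called. At an unadjusted p under 0.05, 8 of 19 were below 0 and 0 above 0 with 12 arrays, against 3.91% and 4.13% of all genes, and 12 of 19 were below 0 without MKR fat replicate 1, against 4.93% of all genes. The lower values lay in fat, where 18 of 19 were lower in MKR with 12 arrays and 16 of 19 with 11. Of all 20358 genes, 10066 and 9111 were lower in MKR fat. In muscle the median change was -0.08. For 7 of 19 genes the difference between fat and muscle of a mouse did not overlap between the genotypes, all 7 lower in MKR, against 15.3% of all genes in either direction.

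Acacb, the acetyl-CoA carboxylase that also controls entry of fatty acids into mitochondria, led the list. It read 8.79, 8.39 and 8.93 in WT fat and 5.79, 7.13 and 7.57 in MKR fat. In muscle it read 8.68, 8.61 and 8.81 in WT and 8.25, 8.39 and 8.67 in MKR. Without replicate 1 Acacb fell 1.36 in fat (adjusted p = 0.017), and its interaction was -1.09 (SE 0.24, adjusted p = 0.12). Slc25a1, which exports citrate from mitochondria for fatty acid synthesis, read 9.26, 8.54 and 9.32 in WT fat and 7.75, 8.44 and 8.35 in MKR fat, and 5.52 to 5.73 on all muscle arrays, with an interaction of -0.70 (adjusted p = 0.33).

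The fatty acid synthase Fasn, the cytosolic carboxylase Acaca and the other lipogenesis genes below are named after their values were seen, and they varied among WT mice. Fasn read 9.91, 8.21 and 9.26 in WT fat and 7.46, 8.34 and 7.89 in MKR fat, with an interaction of -1.06 (SE 0.46, adjusted p = 0.41). WT replicate 2 lay within the MKR range. Acaca read 9.66, 8.31 and 9.22 in WT fat and 7.28, 8.06 and 7.76 in MKR fat, with an interaction of -0.93 (adjusted p = 0.39). The ATP citrate lyase Acly read 8.98, 7.57 and 8.45 in WT fat and 9.06, 7.07 and 7.19 in MKR fat, where 9.06 was replicate 1. Elovl6 and Fads2, which elongate and desaturate fatty acids, were also highest on that array, at 8.71 and 9.72 against 5.82 to 7.84 for both genes on the other fat arrays. Their interactions were 0.01 and 0.13 with that array and -0.94 and -1.0 without it. Scd1 was level in fat, at 12.13 to 12.29 in WT and 11.88 to 12.22 in MKR.

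**Figure D4:**
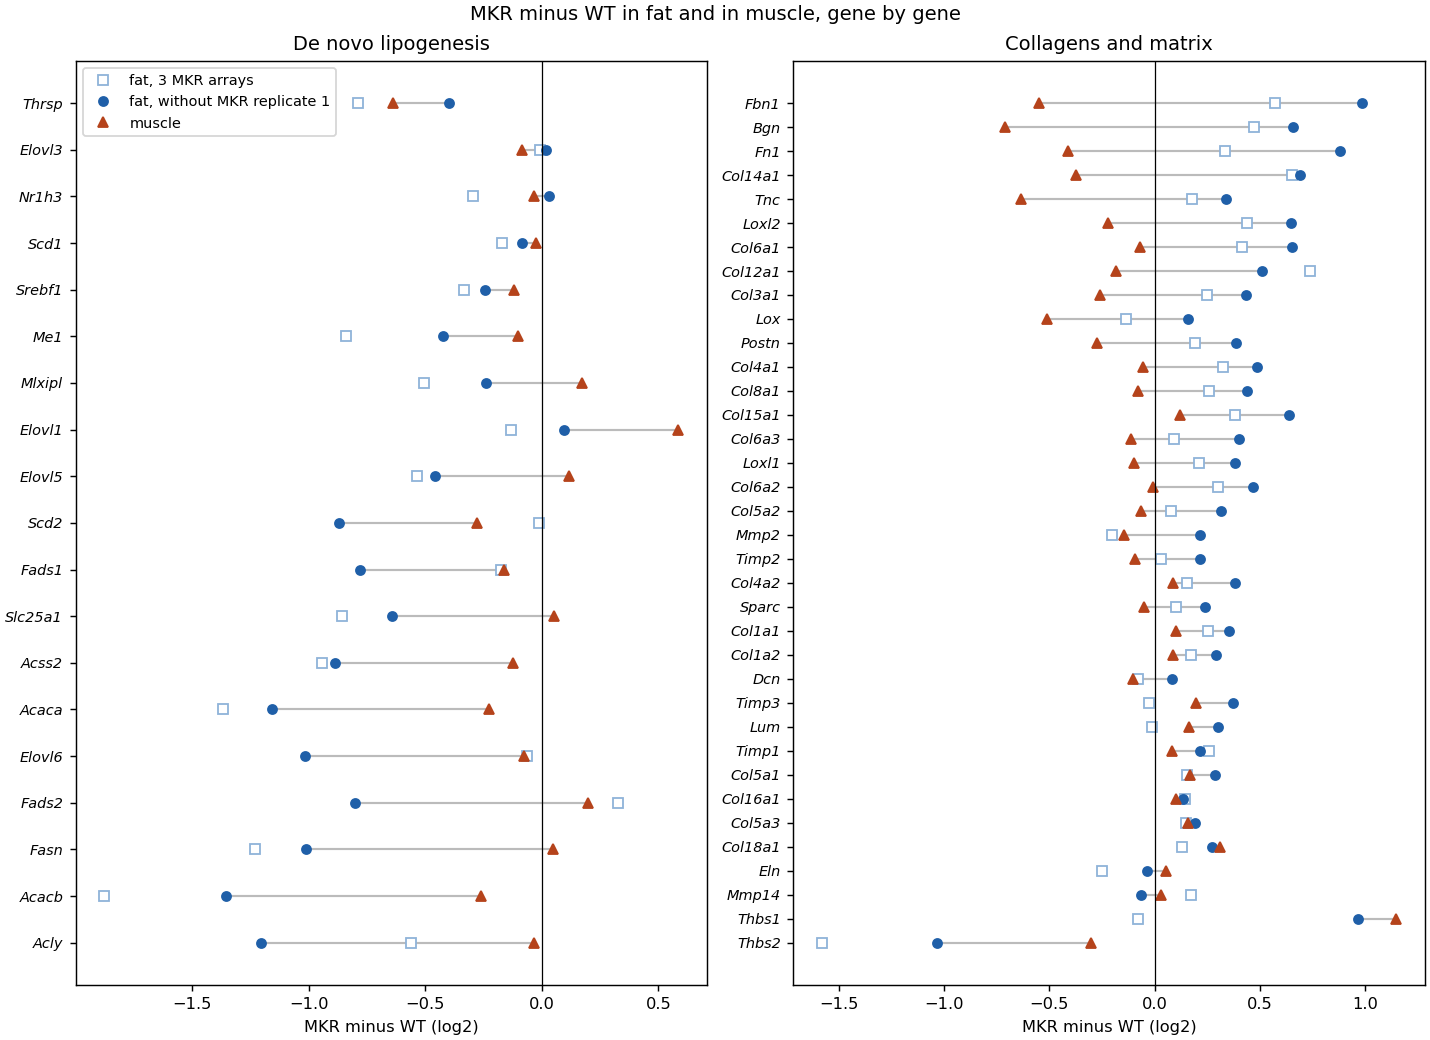
MKR minus WT (horizontal axis, log2) for 19 genes of de novo lipogenesis and 36 collagen and matrix genes (vertical axis), in fat with 3 MKR arrays (open squares), in fat without MKR replicate 1 (blue circles) and in muscle (triangles). In 16 lipogenesis genes the blue circle lies left of the triangle and in 31 matrix genes it lies right of it.

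Matrix genes stood on the other side. Of 36 collagen and matrix genes, 31 had an interaction above 0 without MKR fat replicate 1 and 27 with 12 arrays, and the median was 0.37 and 0.16. None was called. At an unadjusted p under 0.05, 17 were above 0 and 1 below 0 without replicate 1, against 6.59% and 4.93% of all genes, but only 5 above and 1 below with 12 arrays, so that the count rests on leaving out that array. Bgn, the small proteoglycan biglycan, had an interaction of 1.37 (adjusted p = 0.13) without replicate 1 and 1.18 (adjusted p = 0.44) with it. It was 0.66 higher in MKR fat and 0.71 lower in MKR muscle. Fibronectin, Fn1, named after its values were seen, read 9.33, 9.46 and 9.08 in WT fat and 8.53, 10.42 and 9.92 in MKR fat. In muscle Fn1 read 8.31, 8.35 and 8.63 in WT and 8.19, 7.78 and 8.09 in MKR, with an interaction of 1.30 (adjusted p = 0.063) without replicate 1. Col12a1 had an interaction of 0.69 without and 0.92 with replicate 1. Thbs2, also named after its values were seen, had the opposite sign, at -0.73 and -1.28. Fibroblast markers moved with these genes without replicate 1, and the lists share members such as Col3a1. The mean of the fibroblast markers was 8.07 and 7.83 on MKR fat replicates 2 and 3, 7.35 on replicate 1 and 7.47 to 7.59 in WT fat. Their part in the result was not tested.

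Macrophage markers had a median interaction of 0.54 without MKR fat replicate 1 and 0.32 with 12 arrays, and 8 and 2 of 15 were above 0 at an unadjusted p under 0.05, against 6.59% and 4.13% of all genes. In each fit 1 of 15 was below 0 at that threshold, against 4.93% of all genes without MKR fat replicate 1 and 3.91% with 12 arrays, and none was called. Their mean was 7.07 and 7.16 on MKR fat replicates 2 and 3, 6.33 on replicate 1 and 6.74 to 7.04 in WT fat. In muscle it was 5.53 to 5.67 in MKR and 5.67 to 6.01 in WT. Itgam (CD11b), named after its values were seen, read 5.35, 5.59 and 5.67 in WT fat and 5.35, 6.03 and 6.10 in MKR fat, and 4.87, 5.16 and 5.16 in WT muscle and 4.75, 4.69 and 4.81 in MKR muscle, with an interaction of 0.84 (adjusted p = 0.081) without replicate 1. The mannose receptor Mrc1 and Trem2 were likewise chosen after their values were seen. Mrc1 differed by 0.10 in fat and 0.80 lower in MKR muscle. Trem2 had the opposite sign, at -0.43. Of 36 chemokines, cytokines and their receptors, 11 were above 0 and 3 below 0 at an unadjusted p under 0.05 without replicate 1, against 6.59% and 4.93% of all genes. With 12 arrays 2 were above and 4 below, against 4.13% and 3.91%, and none was called in either fit.

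Genes of dividing cells had a median interaction of 0.18 without MKR fat replicate 1 and 0.19 with 12 arrays, so the list did not rest on that array. At an unadjusted p under 0.05, 8 and 9 of 36 were above 0, against 6.59% and 4.13% of all genes, and 0 were below. None was called. Mki67, the marker of cycling cells, read 5.45, 5.27 and 5.48 in WT fat and 6.0, 6.50 and 6.19 in MKR fat, and 5.02 to 5.29 on the muscle arrays. Without replicate 1 it rose by 0.95 in fat (adjusted p = 0.017), and its interaction was 0.86 (adjusted p = 0.080). Nusap1, a spindle protein, had an interaction of 0.64 (adjusted p = 0.17).

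Among genes of muscle fibres, all 17 fast fibre genes had an interaction above 0 with 12 arrays and 16 of 17 with 11, with medians of 0.27 and 0.29, against 50.1% and 53.4% of all genes above 0. At an unadjusted p under 0.05, 7 and 6 were above 0, against 4.13% and 6.59% of all genes, and none was called. Most were abundant in muscle and close to the lowest signals in fat. In fat all 17 were higher in MKR with 12 and with 11 arrays, against 10292 and 11247 of 20358 genes. The median change in fat was 0.17 and 0.15. In muscle 15 of 17 were lower in MKR, against 9979 of 20358 genes, with a median change of -0.07. Myh1, a fast myosin heavy chain, read 11.99, 11.66 and 12.13 in WT muscle and 11.45, 11.51 and 11.61 in MKR muscle, and 4.08 to 4.46 on the fat arrays, with an interaction of 0.57 (adjusted p = 0.47). Mybpc2, a fast myosin binding protein, differed by -0.07 in muscle and by 0.34 in fat, at 4.42 to 4.97 on the fat arrays. The list of slow fibre genes had a median of -0.03, and Mybph was the only one of its 18 members called. The fibre type in which Mybph is expressed was not tested. Mstn, the growth inhibitor myostatin, fell in MKR muscle by 0.83 (adjusted p = 0.062 with 12 arrays and 0.017 without replicate 1). Its interaction was 0.99 (adjusted p = 0.080) without replicate 1. In the same fit Sh3rf2 fell by 1.2 in MKR muscle (adjusted p = 0.010), with an interaction of 1.38 (adjusted p = 0.064). Nmrk2, the nicotinamide riboside kinase of muscle, rose by 1.32 in MKR muscle (adjusted p = 0.11 with 12 arrays and 0.043 without replicate 1). Without replicate 1 its interaction was -1.26 (adjusted p = 0.26).

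The oxidative pathways that the study followed had no gene called for the interaction. Branched-chain amino acid (BCAA) degradation had a median interaction of -0.15 with 12 arrays and 0.04 without MKR fat replicate 1. With 12 arrays all 26 genes were lower in MKR fat and 23 were lower in MKR muscle, against 10066 and 9979 of 20358 genes. Without replicate 1 the number lower in fat was 22, against 9111 of 20358. The interaction had an unadjusted p under 0.05 in 1 of 26, against 11.5% of all genes. With 12 arrays the number was 0, against 8.05%. Bckdhb, a subunit of the branched-chain ketoacid dehydrogenase, read 9.61, 9.74 and 9.89 in WT fat and 8.15, 9.55 and 9.83 in MKR fat, where 8.15 was replicate 1. The interaction of Bckdhb was -0.18 with and 0.33 without that array. Those of Hibch and Echs1, enzymes of valine breakdown and β-oxidation, were -0.28 and -0.07 with the array and 0.07 and 0.17 without it. None of these passed. Dbt, another subunit of the dehydrogenase, had an interaction of 0.55 (adjusted p = 0.40) without it.

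Fatty acid (FA) oxidation had medians of -0.11 and 0.05, the citric acid cycle of -0.18 and 0.01 and the respiratory chain of -0.18 and -0.04, in that order of 12 and 11 arrays. None of their genes was called. With 12 arrays the interaction was above 0 in 6 of 25, 4 of 29 and 13 of 71, against 50.1% of all genes. Without replicate 1 it was above 0 in 14, 15 and 27, against 53.4%. In the respiratory chain, 7 of 71 were below 0 at an unadjusted p under 0.05 with 12 arrays, against 3.91% of all genes, and 4 with 11, against 4.93%, and 0 were above 0. The example with the smallest p was Cox6c, a subunit of cytochrome c oxidase, at -0.52 and -0.45. Triglyceride synthesis and lipolysis had the largest shift of the 32 pathway lists, from a median of -0.46 with 12 arrays to 0.02 without replicate 1, and its acyltransferase Agpat2 kept its sign, at -1.14 and -0.80 (adjusted p = 0.44 and 0.13). The median of the adipocyte markers went from -0.49 to 0.03. Ppargc1a, the coactivator of mitochondrial genes, had an interaction of -0.79 and -0.96 and was 0.88 lower in MKR fat without replicate 1, which did not pass (adjusted p = 0.15).

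**Figure D5:**
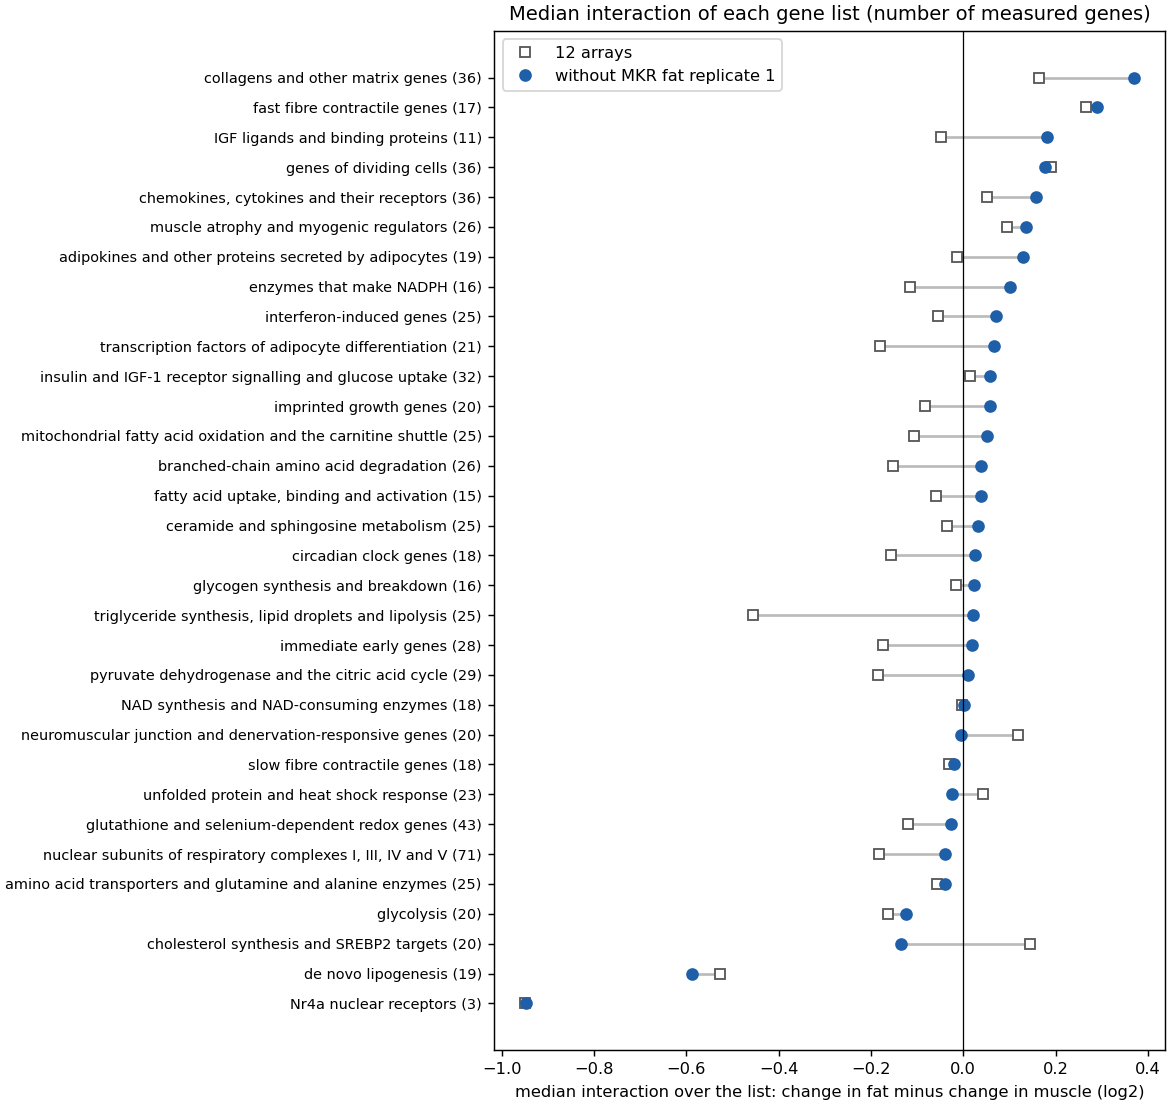
Median interaction (horizontal axis, change in fat minus change in muscle, log2) of each of 32 gene lists (vertical axis, number of measured genes in parentheses), with 12 arrays (open squares) and without MKR fat replicate 1 (filled circles). De novo lipogenesis and the 3 Nr4a receptors lie left of 0 with both sets of arrays, and triglyceride synthesis moves from -0.46 to 0.02.

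Some genes changed alike in the tissues. At an unadjusted p under 0.05 in both, 142 genes (0.698%) were lower and 102 (0.501%) higher in both tissues without MKR fat replicate 1, and 122 (0.599%) and 33 (0.162%) with 12 arrays. Msl3, a subunit of a histone acetyltransferase complex, fell by 0.76 in fat (adjusted p = 0.025) and by 1.07 in muscle (adjusted p = 0.00030) without MKR fat replicate 1, and its interaction was 0.31 (adjusted p = 0.45). Without that array, Parm1 fell by 1.11 in fat (adjusted p = 0.017) and differed by -0.32 in muscle (adjusted p = 0.26), with an interaction of -0.80 (adjusted p = 0.17). The difference between tissues was thus not shown for Parm1, although only the change in fat was called.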

How the data were processed

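Total RNA of fat and muscle from 3 MKR and 3 healthy mice was hybridized to Affymetrix Mouse Gene 1.0 ST arrays. The authors normalized the arrays by RMA with quantile normalization in Partek 6.3 and deposited log2 values, which run from 1.52 to 3.82 over 241419 probe sets. That range is narrower than array intensities give on 1 log2 scale and matches log2 taken of values already on it. No source states this. Accordingly, 2 to the power of the deposited log2 value (2.87 to 14.15) was used as log2 intensity. Values were averaged per gene over probe sets that the platform annotation gives 1 symbol (212138 probe sets; 4672 with several symbols and 24609 with none were left out). Of 20422 symbols, 17626 were current in RefSeq, 2743 were updated through 1 synonym and 53 were kept, which gave 20358 genes. Probe signals of different genes are not comparable as abundances.

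Group means over the 12 arrays were fitted with limma 3.58.1 in R 4.3.3, with empirical Bayes moderation, 8 residual degrees of freedom (7 without MKR fat replicate 1) and Benjamini-Hochberg adjustment over 20358 genes. All p values in the report come from this fit, and those without MKR fat replicate 1 from the same fit on 11 arrays. The methods of the study used a 2-way analysis of variance with an unadjusted p threshold of 0.05 and a fold change over 1.5. That analysis of variance was not run. Its thresholds were applied to the interaction of the limma fit as an alternative count. Exact permutation tests on 3 against 3 samples cannot pass 0.05 and were not used. The number of arrays limits the precision. The script was tested on simulated data.

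Fat and muscle arrays of the same number and genotype come from the same mouse by their titles. The correlation over genes of their deviations from the group means was 0.007, 0.013 and -0.001 in the MKR mice and 0.203, 0.063 and 0.089 in the WT mice. The mouse as a block was an alternative. Other alternatives were the liver arrays in the fit, omission of arrays, mouse as a random block, probe set medians, omission of dim genes, quantile normalization within tissue, median centring, deposited values as they stand, no moderation, trended and robust moderation, array weights, other thresholds and probe sets in place of genes.

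Genes were named by a rule: Igf1r, the 12 largest interactions among called genes in each direction with 12 arrays and up to 8 more in each direction without MKR fat replicate 1, the 6 largest opposite changes in each direction, up to 4 members of each pathway list past the threshold or else 2 of smallest p, and a set of 18 genes, without predicted, RIKEN, small RNA and olfactory genes in the ranked parts. The members and lists were chosen with earlier results of these data known. Promoters were taken from RefSeq (GRCm38.p6). All 5 promoters searched for had an entry.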

Additional observations from a re-analysis of the deposited data

Results flagged for a closer look

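The difference between the tissues was tested for every gene by the interaction itself, and the genes that passed are the results to look at again. With 12 arrays these were Me3 (3.12), Mybph (2.55), Slc4a10 (1.67), 1600029O15Rik (1.32) and Cdh4 (1.26) above 0 and Nr4a3 (-2.25) below 0. Without MKR fat replicate 1, 27 further genes passed. Above 0 these were Prss23 (1.81), Mettl21e (1.63), Sfrp4 (1.53), Igfbp5 (1.5), Mfap5 (1.48), Hal (1.47), Mical2 (1.46), Gm4383 (1.19), Scg3 (1.16), Anxa8 (1.06), Odf3l2 (1.06), Alox5ap (1.04), Kcng4 (1.00), Prune2 (0.95), Lrrtm3 (0.94), Kctd9 (0.91) and Pilra (0.82). Below 0 they were Igf1r (-2.53), Gm904 (-1.71), Gpx3 (-1.54), Peg10 (-1.26), Htra4 (-1.19), Sel1l3 (-1.18), 2610044O15Rik8 (-1.17), Plaat3 (-1.02), Sephs2 (-0.92) and Mgst2 (-0.85). In 9 of these 27, the fat-minus-muscle differences of the 6 mice overlapped between the genotypes when MKR fat replicate 1 was included. Over all genes 15.3% did not overlap, and the choice of called genes favours separation.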

How the results depend on the processing

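With 12 arrays 6 genes were called, 5 higher (the change in fat above the change in muscle) and 1 lower (the change in fat below it). The count was 21 (14 higher, 7 lower) with the liver arrays in the fit, 33 (22, 11) without MKR fat replicate 1, 51 (39, 12) without it among 17 arrays, and 10 (7, 3) without both arrays of MKR mouse 1. Array weights gave 57 (40, 17), and 165 (90, 75) with that fat array omitted as well, which was added after seeing the data. Mouse as a replicate block gave 3 (3, 0), the block with MKR mouse 1 omitted 4 (4, 0) and mouse as a random block 12 (8, 4). It was 10 (7, 3) with dim genes omitted, 7 (5, 2) with probe set medians, 8 (6, 2) with quantile normalization within tissue, 8 (6, 2) with trended and robust moderation, 5 (5, 0) with median centring, 6 (6, 0) with the deposited values and 2 (2, 0) with no moderation. An adjusted p of 0.10 gave 15 (10, 5) and one of 0.01 gave 2 (2, 0). The methods' thresholds gave 508 (250, 258), and 18 probe sets passed (15, 3). Leaving out each array in turn gave 2 to 33 genes, 2 to 22 higher and 0 to 11 lower. The cause of these differences was not tested.

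Of the genes named by the rule, 5 that were not called changed sign. Elovl6, Fads2 and Slc2a4, named after their values were seen, also did so without MKR fat replicate 1, at -0.94, -1.0 and 0.15. Without MKR fat replicate 1, with 11 or 17 arrays, the interactions were 0.17 for Echs1, 0.065 for Hibch and 0.33 for Bckdhb. Without both arrays of MKR mouse 1, with or without the replicate block, they were 0.16, 0.031 and 0.37, and with array weights 0.25, 0.020 and 0.22. Over the fits that each left out 1 array, Echs1 ran from -0.27 to 0.17, Hibch from -0.48 to 0.065, Bckdhb from -0.50 to 0.33, Dbt from -0.10 to 0.55 and Nr4a1 from -0.47 to 0.34. Besides the fits above, the sign turned for Echs1 without replicate 3 of MKR muscle (0.059), of WT fat (0.065) or of WT muscle (0.098). It turned for Dbt when replicate 2 (-0.011) or 3 (-0.10) of MKR fat or WT muscle replicate 1 (-0.032) was omitted. For Nr4a1 it turned with the deposited values (0.012) and when MKR muscle replicate 2 (0.045) or WT muscle replicate 3 (0.34) was omitted. None of the 33 called genes changed sign in these alternatives. With 3 mice a genotype, and 2 MKR fat arrays where replicate 1 is omitted, small differences could not be resolved.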

Other observations

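Liver arrays of the same mice were not part of the comparison. None of the 33 called genes passed in liver. Me3 differed there by -0.09, Mybph by 0.09, Nr4a3 by 0.22, Igf1r by 0.05 and Gpx3 by 0.03 (MKR minus WT, 3 mice each). The smallest unadjusted p of the 33 in liver was 0.039, for Lrrtm3, at -0.23.

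Lists of other cell types gave few values apart from those in the report. In the mesothelial list, the uroplakin Upk3b was 1.12 higher in MKR fat without replicate 1 (adjusted p = 0.015), with an interaction of 1.01 (adjusted p = 0.057), and 0.52 (adjusted p = 0.79) with 12 arrays. Of the 9 genes of the list, 6 had an interaction above 0 and 3 below 0 without replicate 1, down to -0.59. Upk1b read 6.97, 6.63 and 7.06 in WT fat and 9.75, 8.99 and 7.54 in MKR fat. In the mural list, the smooth muscle genes Myh11 and Cnn1 had interactions of -0.90 and -1.0 without replicate 1 (adjusted p = 0.22 and 0.26), and -0.56 and -0.39 with 12 arrays. Of the 9 mural genes 4 were above 0 without replicate 1, Des among them at 0.53 (adjusted p = 0.23). These 5 genes were named after their values were seen. Endothelial markers had a median interaction of -0.31 with 12 arrays and -0.03 without replicate 1.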
